A study of Mus musculus with 4 samples.

Results

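The AP-1 family of transcription factors was followed in effector CD4 cells of mice with experimental autoimmune encephalomyelitis (EAE), a model of multiple sclerosis. The 10 genes described were Fos, Fosb, Fosl1, Fosl2, Jun, Junb, Jund, Batf, Batf3 and Atf3, taken by symbol from the 23990 gene symbols of the deposited tables. Effector CD4 cells (CD44+CD4) had been sorted at disease onset out of the spinal cord (CNS) and out of draining lymph nodes (dLN), the latter pooled, of wild type C57BL/6 mice immunized with a MOG peptide in complete Freund's adjuvant and given pertussis toxin, with 2 libraries per tissue. All 4 libraries share strain, genotype and immunization, and the age of the mice and the number pooled per library are not given in the sources used here. The methods of the study place a stimulation of the sorted cells with PMA and ionomycin before RNA isolation, whereas the sample labels speak of freshly sorted cells and name no stimulation.

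AP-1 is a dimer of proteins that carry a basic region, which contacts DNA, and a leucine zipper, which pairs the partners (bZIP). Fos proteins pair with Jun proteins, Jun proteins also pair with each other, and Batf proteins and Atf3 pair with Jun proteins as well. In T cells Fos, Fosb, Jun and Junb are immediate-early genes, switched on within minutes of receptor signalling through MAP kinases. Fos-Jun dimers bind with NFAT at cytokine genes. Batf, with a Jun partner and Irf4, is known for its part in Th17 differentiation.

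The classical Fos and Jun genes were higher in CNS effector CD4 cells, and Fosl1, Fosl2, Batf and Atf3 were higher in those from dLN. Jun was 24.2-fold, Fos 9.90-fold, Junb 5.35-fold, Jund 5.18-fold and Fosb 2.22-fold higher in CNS as ratios of mean FPKM. In the other direction, Atf3 was 3.82-fold, Batf 2.72-fold and Fosl2 2.26-fold higher in dLN, and Fosl1 was close to the limit of detection in CNS. Of the 10 genes, 5 rose and 4 fell in CNS by limma (Benjamini-Hochberg adjusted p under 0.05 over 10634 genes tested), and Batf3 did not pass. Among all genes tested, 37.8% were called higher and 37.2% lower in CNS, and 74.9% either way, so 9 calls among 10 genes are near what the table as a whole gives. With a log2 ratio of 1 or more in size as a further condition, which 39.2% of all genes met, the counts were again 5 higher and 4 lower. The median log2 ratio was 0.25 over the 10 genes and 0.05 over all genes tested.

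The promoter windows of 5 of these genes are shown, those that held a match of the motifs described below. Of them, Fos, Jun and Junb rose and Batf and Atf3 fell. The windows of Fosb, Fosl2, Jund and Batf3 held no match and are not shown. The sequences are RefSeq promoters of build GRCm38.p6, the assembly also called mm10, from 250 bases before to 50 bases after the transcript start, in the direction of transcription. The windows lie at chr12:85473640-85473939 (plus strand) for Fos, chr4:95052173-95052472 (minus strand) for Jun, chr8:84978699-84978998 (minus strand) for Junb, chr12:85686470-85686769 (plus strand) for Batf and chr1:191183284-191183583 (minus strand) for Atf3. Capitals mark the motif matches described after them.
Fos: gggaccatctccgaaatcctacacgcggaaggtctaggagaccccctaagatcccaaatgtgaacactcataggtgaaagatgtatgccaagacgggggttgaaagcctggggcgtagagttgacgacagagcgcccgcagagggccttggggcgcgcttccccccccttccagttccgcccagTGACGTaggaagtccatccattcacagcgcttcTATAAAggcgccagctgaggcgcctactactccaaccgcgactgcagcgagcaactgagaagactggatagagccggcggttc
Jun: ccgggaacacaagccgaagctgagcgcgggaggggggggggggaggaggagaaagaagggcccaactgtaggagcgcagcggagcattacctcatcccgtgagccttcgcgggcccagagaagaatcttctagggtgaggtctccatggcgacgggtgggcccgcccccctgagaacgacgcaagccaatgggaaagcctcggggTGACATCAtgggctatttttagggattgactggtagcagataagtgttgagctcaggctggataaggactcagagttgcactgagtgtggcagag
Junb: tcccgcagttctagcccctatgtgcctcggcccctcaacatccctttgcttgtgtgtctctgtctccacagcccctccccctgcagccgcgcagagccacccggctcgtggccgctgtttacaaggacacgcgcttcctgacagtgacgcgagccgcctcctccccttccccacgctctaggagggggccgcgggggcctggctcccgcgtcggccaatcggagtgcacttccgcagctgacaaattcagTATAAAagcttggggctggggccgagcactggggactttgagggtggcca
Batf: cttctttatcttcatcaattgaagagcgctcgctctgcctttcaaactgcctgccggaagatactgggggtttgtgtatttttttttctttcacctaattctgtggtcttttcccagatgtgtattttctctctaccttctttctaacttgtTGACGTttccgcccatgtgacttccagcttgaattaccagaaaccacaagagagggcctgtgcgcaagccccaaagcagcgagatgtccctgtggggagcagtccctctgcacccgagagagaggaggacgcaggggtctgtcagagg
Atf3: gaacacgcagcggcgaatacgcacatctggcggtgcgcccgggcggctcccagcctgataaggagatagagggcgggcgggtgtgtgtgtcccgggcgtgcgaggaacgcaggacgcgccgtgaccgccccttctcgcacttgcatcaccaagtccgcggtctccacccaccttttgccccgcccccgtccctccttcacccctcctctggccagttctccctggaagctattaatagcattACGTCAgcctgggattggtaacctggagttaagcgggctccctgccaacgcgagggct

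Both strands were searched for TGANTCA, the AP-1 site or TRE, for TGACGTCA, the cyclic AMP response element or CRE, for the CArG box that serum response factor binds, and for TATAAA. A promoter sequence was available for 9 of the 10 genes, and Fosl1 had no entry. None of the 9 windows held a TRE, a CRE or a CArG box. Of all 32851 promoters of the same length, 7.81%, 1.79% and 1.63% held them, so none among 9 is no unusual count. Sites more than 250 bases before the start lay outside the windows and were not searched. TATAAA, held by 13.6% of all promoters, began 33 bases before the start of Fos and at the first base of the annotated Junb transcript. Positions in Fos are counted from the start in its promoter window, which lies somewhat upstream of the start of the Fos locus given below. A pair of shorter or looser motifs was chosen after the sequences had been seen. TGACGT, a part of the CRE, was in the windows of Fos, Batf and Atf3 (7.51% of all promoters), 66, 98 and 8 bases before the start, on the opposite strand in Atf3. TGACNTCA, which includes the CRE, matched only in Jun, as TGACATCA 45 bases before its start (8.83% of all promoters). TGACGT was thus in the windows of Fos, which rose, and of Batf and Atf3, which fell. The matches are descriptions of these letters and not measured binding sites.

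CD4 T-cell markers were present in every library, and RNA of macrophages and neutrophils was read mainly in CNS replicate 2. All 8 CD4 T-cell markers fixed for this check (Cd4, Cd3d, Cd3e, Cd3g, Cd2, Cd5, Cd28 and Cd44) were above 1 FPKM in both tissues. They summed to 2830 and 2839 FPKM in CNS and to 1358 and 1269 FPKM in dLN, with Cd4 6.94-fold, Cd3g 7.15-fold, Cd3e 3.71-fold, Cd3d 3.54-fold and Cd28 2.18-fold higher in CNS, Cd5 and Cd44 called lower (log2 ratios -0.29 and -0.56) and Cd2 not called. FPKM counts fragments relative to transcript length and to the mapped total of the library, so levels can be compared between genes. The summed FPKM of the 13 macrophage and microglia markers found in the tables was 25.4 in CNS replicate 1, 185 in CNS replicate 2, 4.38 in dLN replicate 1 and 3.93 in dLN replicate 2, with 7 of them listed at 0 in both dLN libraries. The sum of 5 neutrophil markers came to 1.04 and 207 FPKM in CNS replicates 1 and 2 and to no more than 0.0686 FPKM in either dLN library, where 4 of them were listed at 0. CD8 T-cell, NK-cell and B-cell markers summed to at most 5.40, 4.37 and 1.76 FPKM in any library, and 9 neural and endothelial markers to between 51.3 and 58.0 FPKM in all 4, most of it Mbp. Y-linked Ddx3y was at 12.7 and 11.2 FPKM in CNS and listed at 0 in dLN, while Xist reached 26.6 and 22.3 FPKM in the dLN libraries against 0 and 0.0026 FPKM in those from CNS, so tissue, deposited table and sex-linked RNA follow the same split and cannot be told apart. The depth estimated from the steps of low values was 20.8, 21.6, 18.5 and 22 M fragments in CNS replicates 1 and 2 and dLN replicates 1 and 2. In bulk RNA, fewer expressing cells and less RNA per cell cannot be told apart.

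**Figure D1:**
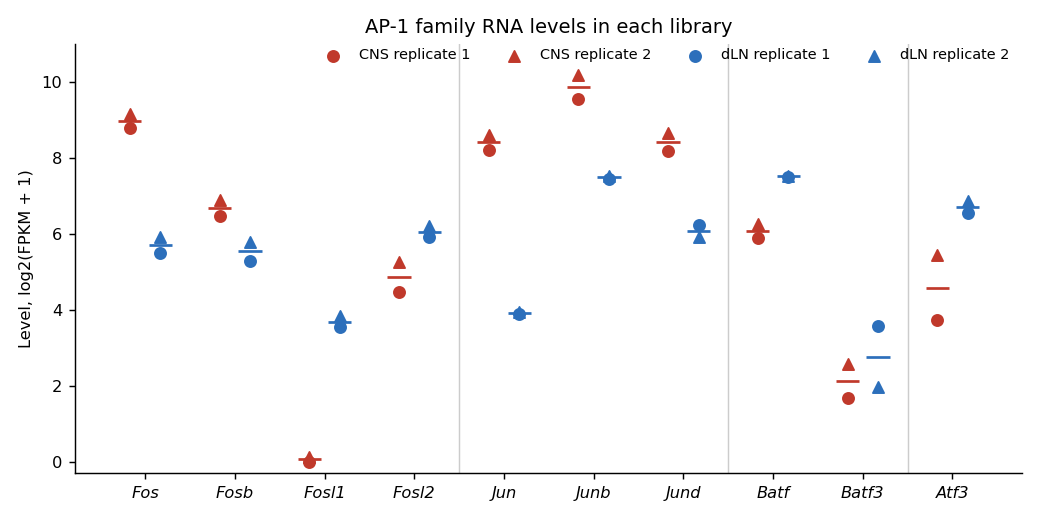
The level of each gene as log2(FPKM + 1), with one point per library (red, CNS; blue, dLN; circles, replicate 1; triangles, replicate 2) and a line at the mean of the 2 libraries. The red points lie above the blue ones for Fos, Fosb, Jun, Junb and Jund, below them for Fosl1, Fosl2, Batf and Atf3, and overlap with them for Batf3.

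Fos, the founding member, encodes a protein that cannot pair with itself and binds DNA as a dimer with a Jun protein. Its gene (Entrez gene 14281) lies on chromosome 12 from 85473901 to 85477270. Fos reached 442 and 574 FPKM in CNS replicates 1 and 2 and 43.6 and 58.9 FPKM in those from dLN. Both CNS libraries lay far above both dLN libraries, as was the case in one direction or the other for 9 of the 10 genes and for 89.4% of all genes tested. The log2 ratio of CNS over dLN, here and below on the log2(FPKM + 1) scale, was 3.29, with a standard error (SE) of 0.20 (limma adjusted p = 0.000182). Fos stood above 98.4% of the tested genes in CNS replicate 1 and above 82.5% in dLN replicate 1.

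Fosb encodes the Fos protein most like Fos. It lies on chromosome 7 from 19302696 to 19310045. It was at 87.0 and 118 FPKM in CNS and at 38.1 and 54.3 FPKM in dLN, with no overlap. The CNS mean was 102 ± 21.7 FPKM and the dLN mean 46.2 ± 11.4 FPKM (each with the SD, n = 2), and the log2 ratio was 1.14 (SE 0.23, limma adjusted p = 0.00774). Without CNS replicate 2 the log2 ratio was 0.92 and the limma adjusted p was 0.0678, the highest of the alternatives, of which the lowest was 0.00100. The tables hold a single Fosb transcript, so the shorter isoform known as delta FosB was not told apart.

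Fosl1 encodes Fra-1 and Fosl2 encodes Fra-2, Fos-related proteins that lack the strong activation domain of Fos. Fosl1 (chromosome 19, 5447698 to 5455938) was listed at 0 in CNS replicate 1, at 0.0915 FPKM in CNS replicate 2, and at 10.6 and 13.2 FPKM in dLN. These values correspond to 0 and 3 fragments in the CNS libraries and to 297 and 442 fragments in the dLN libraries. Fosl1 RNA was thus nearly absent from the CNS libraries and at a middling level in dLN, above 50.5% and 57.6% of the tested genes. Scaled to depth, fragments were 258 times as many in dLN (exact 95% interval 87.9 to 1253, counting error only). The fall was called (limma adjusted p = 9.15e-05), but its fitted size depends on the pseudocount, with a log2 ratio of -3.62 at a pseudocount of 1, -6.43 at 0.1 and -1.74 at 5. The 3' part of Fosl1 overlaps Ccdc85b on the opposite strand over 2759 bases, and the library kit does not mark strand. Ccdc85b was at 5.58 and 6.92 FPKM in CNS and at 12.4 and 14.1 FPKM in dLN, and its part in the Fosl1 values was not tested.

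Fosl2 (chromosome 5, 32136472 to 32157839) was at 21.3 and 37.1 FPKM in CNS and at 59.4 and 72.6 FPKM in dLN. The CNS values were both the lower ones, and CNS replicate 2 was 1.74 times as high as CNS replicate 1. The log2 ratio was -1.19 (SE 0.28, limma adjusted p = 0.0133). Without dLN replicate 2 it was -1.05 with a limma adjusted p of 0.0739, the highest of the alternatives, of which the lowest was 0.0035, and without CNS replicate 1 it came to -0.81 and was called. Fosl2 was therefore the Fos gene whose call was nearest to the threshold.

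Jun proteins are the partners of Fos in AP-1 and can also pair among themselves. The Jun genes carry no intron, since the locus of each of these 3 genes in the tables is exactly as long as its transcript. Jun (Entrez gene 16476, chromosome 4, 95049036 to 95052222), which encodes the strongest activator of the Jun proteins, was at 293 and 391 FPKM in CNS and at 13.8 and 14.4 FPKM in dLN. The dLN libraries were close to each other and both CNS libraries stood far above them. The log2 ratio of 4.49 (SE 0.15, limma adjusted p = 8.33e-05) was exceeded in size by 0.686% of all genes tested. It stayed between 4.17 and 4.70 over 14 alternatives. An antisense gene, Junos, overlaps the first 689 bases of the Jun transcript, and reads of the pair cannot be told apart without strand.

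Junb is known to bind DNA less strongly than Jun and to restrain it, and it is needed for Th17 cells. Junb (Entrez gene 16477, chromosome 8, 84976909 to 84978748) was at 752 and 1158 FPKM in CNS and at 174 and 184 FPKM in dLN. It was the highest of the 10 genes in CNS, above 98.8% of the tested genes in replicate 1, and it was also high in dLN, above 96.0% in replicate 1. Its log2 ratio came to 2.38 (SE 0.21, limma adjusted p = 0.000524).

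Jund, which encodes the Jun protein that most resting cells already make, lies on chromosome 8 from 70697739 to 70700616. It was at 290 and 399 FPKM in CNS and at 73.7 and 59.2 FPKM in dLN. The log2 ratio came to 2.35 (SE 0.19, limma adjusted p = 0.000404). All 4 libraries therefore held Jund RNA at a substantial level, and the CNS libraries lay above those from dLN. The antisense gene Gm11175 overlaps 919 bases of it.

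Batf encodes a small bZIP protein without an activation domain that pairs with Jun proteins and binds together with Irf4. Batf (Entrez gene 53314, chromosome 12, 85686720 to 85709087) was at 58.3 and 74.96 FPKM in CNS and at 179 and 184 FPKM in dLN. Neither CNS library reached the level of the dLN libraries, which were nearly equal. The log2 ratio was -1.44 (SE 0.14, limma adjusted p = 0.000621), and it stayed between -1.64 and -1.26 over the 14 alternatives. Batf starts 209 kb beyond the end of Fos on the same chromosome and moved the other way. The ratio of Fos to Batf FPKM within a library, which does not depend on how libraries are scaled, was 7.58 and 7.66 in CNS and 0.244 and 0.321 in dLN.

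Batf3 is best known from dendritic cells. Batf3 (chromosome 1, 191098414 to 191108943) was at 2.21 and 4.90 FPKM in CNS and at 10.8 and 2.92 FPKM in dLN, from 26 to 104 fragments per library. The tissues overlapped, and the log2 ratio of -0.64 (SE 0.59, limma adjusted p = 0.364) did not pass. It came to 0.15 without dLN replicate 1 and to -1.44 without dLN replicate 2, with an adjusted p of 0.0479 in the second case, and over all alternatives the adjusted p lay between 0.0479 and 0.844. It also came to -0.21 without CNS replicate 1 and to -1.08 without CNS replicate 2. Leaving out a dLN library thus changed the direction or the call, and leaving out a CNS library changed neither. The 5 dendritic-cell markers summed to 7.59 and 9.81 FPKM in CNS and to 3.21 and 2.11 FPKM in dLN. Itgax, which macrophages also express, was at 5.50 and 5.55 FPKM in CNS and at 0.260 and 0.138 FPKM in dLN (limma adjusted p = 0.000132), and Zbtb46 was called lower in CNS (0.186 and 0.403 FPKM against 1.04 and 1.03 FPKM). Flt3 and Clec9a were listed at 0 in all libraries but CNS replicate 2 (2.05 and 0.414 FPKM), and Xcr1 lay between 0.944 and 1.91 FPKM in all 4. The part of such cells in the Batf3 values was not tested.

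Atf3 encodes a stress-induced bZIP protein that represses transcription as a dimer with itself and can activate it with a Jun partner. Atf3 (chromosome 1, 191170297 to 191183333), a locus 61.4 kb from that of Batf3, was at 12.2 and 42.2 FPKM in CNS and at 92.5 and 115 FPKM in dLN. Both CNS libraries lay below those from dLN, but CNS replicate 2 was 3.45 times as high as CNS replicate 1, the widest gap among the 9 genes with a value above 0 in both CNS libraries. The log2 ratio was -2.13 (SE 0.57, limma adjusted p = 0.0211), -1.27 without CNS replicate 1 and -2.98 without CNS replicate 2. The call was lost without dLN replicate 1 (log2 ratio -2.28, limma adjusted p = 0.0661), without dLN replicate 2 (-1.97, limma adjusted p = 0.0974) and with 16782 genes tested instead of 10634 (limma adjusted p = 0.0703), in a range of 0.0052 to 0.0974 over the alternatives.

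**Figure D2:**
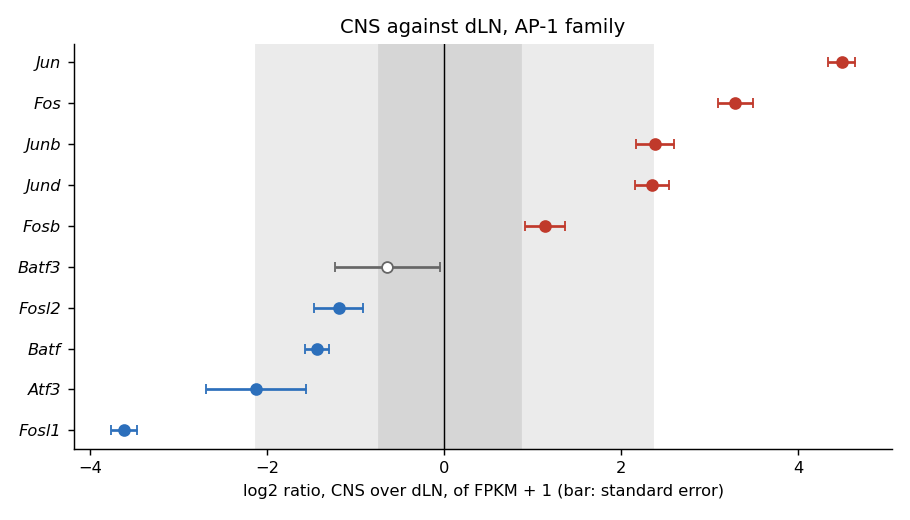
The log2 ratio of CNS over dLN for each gene, on the log2(FPKM + 1) scale, with its standard error from limma. Filled points passed the adjusted p of 0.05 (red, higher in CNS; blue, lower), the open point of Batf3 did not, and the grey bands hold the middle of all tested genes, from the 25th to the 75th percentile (dark) and from the 5th to the 95th (light).

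The gap between the CNS libraries ran in the same direction in every gene of the family. All 10 genes were higher in CNS replicate 2 than in replicate 1, with ratios of 1.29 to 3.45 for the 9 genes above 0 in both and a median difference of 0.44 on the log2 scale. Over all genes tested, 54.3% were higher in CNS replicate 2 and the median difference was 0.02. The dLN libraries showed a like lean, with 8 of the 10 genes higher in dLN replicate 2 than in dLN replicate 1, all but Jund and Batf3. Over all genes tested the median difference between the dLN libraries was -0.05. CNS replicate 2 is the library with the macrophage and neutrophil markers, whose part in these levels was not tested. With CNS replicate 2 left out, 4 of the 5 genes that rose were still called, all but Fosb, and the 4 that fell were still called.

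The make-up of the family's RNA differed between the tissues. The FPKM of the 10 genes summed to 1958 and 2799 in the CNS libraries and to 695 and 758 in the dLN libraries. The Jun, Junb and Jund genes together held 68.2% and 69.6% of that sum in CNS and 37.6% and 33.9% in dLN. Batf alone held 2.98% and 2.68% in CNS and 25.7% and 24.2% in dLN, and Atf3 held 0.625% and 1.51% in CNS and 13.3% and 15.2% in dLN. The 4 Fos genes together held a like share in each tissue, 28.1% and 26.1% in CNS and 21.8% and 26.2% in dLN, so that the tissues overlapped. Within the Fos genes the make-up was not alike, since Fos itself was 80.3% and 78.8% of their sum in CNS and 28.8% and 29.6% in dLN, while Fosl2 was 3.87% and 5.09% in CNS and 39.1% and 36.5% in dLN. Among the Jun genes, Jun was 21.9% and 20.1% of the sum in CNS and 5.29% and 5.60% in dLN, and Junb was the largest part in all 4 libraries. These shares are descriptions, because 2 libraries per tissue allow no exact permutation test below the usual threshold.

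**Figure D3:**
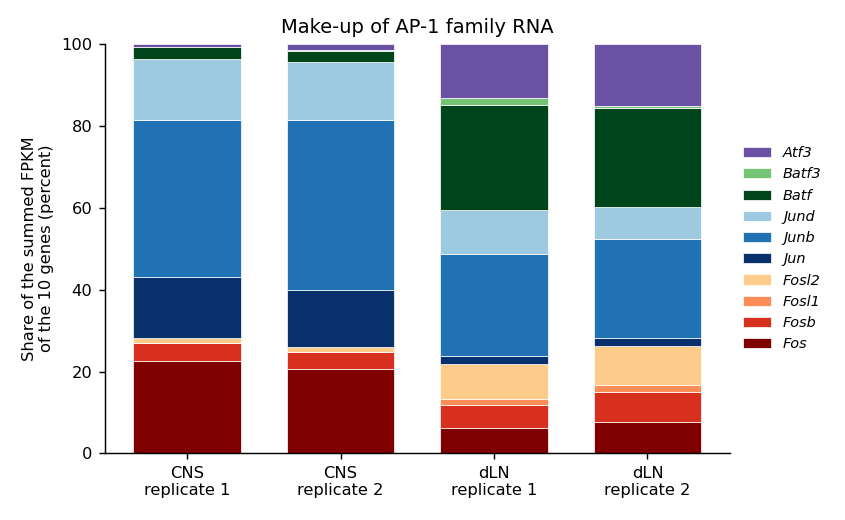
Stacked bars of the share of each gene in the summed FPKM of the 10 genes, in percent, with one bar per library. The blue Jun genes and the dark red of Fos fill most of the CNS bars, and the green of Batf, the purple of Atf3 and the pale orange of Fosl2 take a larger part of the dLN bars.

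Ranked by FPKM, the order in CNS was Junb, Fos, then Jund and Jun, whose ranges overlapped, then Fosb, Batf, Fosl2 and Atf3, of which the last pair overlapped, and at the bottom Batf3 and Fosl1. In dLN the order was Batf and Junb with overlapping ranges, Atf3, Jund and Fosl2 with overlapping ranges, Fos and Fosb with overlapping ranges, then Jun, and at the bottom Fosl1 and Batf3, which overlapped. Jun, which matched Jund in CNS (ratios of 1.01 and 0.981), was at 0.187 and 0.243 of Jund in dLN.

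Other bZIP factors also bind DNA as dimers, and only some of them share partners or DNA sites with AP-1. They were called in both directions at shares near those of all genes tested (37.8% higher and 37.2% lower). Of 32 tested, 10 were called higher and 13 lower in CNS, and the median log2 ratio was -0.14 against 0.05 over all genes. Jdp2, which encodes a repressor at AP-1 sites, had the largest rise on the log2(FPKM + 1) scale (6.35 and 9.36 FPKM in CNS against 1.25 and 1.36 FPKM in dLN, log2 ratio 1.92), followed by Maf (1.33) and Cebpd (1.28). As a ratio of mean FPKM, Cebpd rose 11.5-fold and Jdp2 6.01-fold. Cebpd was low in both tissues, at 1.29 and 2.48 FPKM in CNS and at 0.130 and 0.196 FPKM in dLN. Its log2 ratio ranged from 0.41 to 2.86 over the alternatives. Bach2, which competes with AP-1 for its sites in T cells, fell most (0.786 and 0.960 FPKM in CNS against 11.1 and 13.2 FPKM in dLN, log2 ratio -2.81), followed by Creb3l2 (-2.30) and Mafg (-1.98). Each of these 6 genes had a limma adjusted p of at most 0.00645.

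A list of 9 genes was taken from families with members that bind beside AP-1. Of these, 4 were called higher and 4 lower, again near the shares of all genes (37.8% and 37.2%). Irf4, the partner of Batf, was at 30.8 and 39.7 FPKM in CNS and at 348 and 362 FPKM in dLN. The log2 ratio came to -3.31 (SE 0.14, limma adjusted p = 9.2e-05). Both Batf and Irf4 were thus lower in CNS. Irf8, which can take the place of Irf4, had a log2 ratio of -1.12 (limma adjusted p = 0.0177), which was not called in 3 alternatives (adjusted p up to 0.0811), those without filter and without either dLN replicate, and moved to -0.70 without CNS replicate 1. Nfat5 fell (-2.08). Runx3 (2.48), Nfatc2 (1.72) and Ets1 (1.499) rose. Nfatc2 encodes an NFAT protein that binds with Fos and Jun at cytokine genes. Of the other NFAT genes listed, Nfatc1 was called lower (-0.82) and Nfatc3 higher (1.49).

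Genes that carry the signal to Fos and Jun, from the protein kinase C and Ras step through the MAP kinases to serum response factor, were called higher in 11 and lower in 5 of 22 cases, against 37.8% and 37.2% of all genes tested, with a median log2 ratio of 0.35 against 0.05. Mapk3, which encodes the kinase ERK1, was at 50.04 and 49.0 FPKM in CNS and at 6.02 and 3.91 FPKM in dLN (log2 ratio 3.11, standard error 0.19, limma adjusted p = 0.000183). The activators of the p38 kinases went in opposite directions, Map2k6 with a log2 ratio of 2.47 and Map2k3 with one of -3.08. Rasgrp1, which activates Ras in T cells, rose (0.93), and Map2k7 and Mapk8 of the JNK branch, which phosphorylates Jun, fell (-1.05 and -0.80). In the rest of that branch, added after the values were seen, Mapk9 rose (0.68, limma adjusted p = 0.00466), and Map2k4 (-0.11) and Map3k1 (0.10) were not called.

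Genes known as targets of AP-1 with NFAT in T cells were mostly lower in CNS. That is opposite to the classical Fos and Jun genes and the same direction as Fosl1, Fosl2, Batf, Atf3 and Irf4. Of 25 tested, 17 were called lower and 3 higher (37.2% and 37.8% over all genes), with a median log2 ratio of -2.46, and without CNS replicate 2 the counts were 18 and 1. The largest falls were in cytokine genes. Il17f was at 3.21 and 4.92 FPKM in CNS against 1416 and 1150 FPKM in dLN. Il2 was at 18.2 and 38.8 FPKM in CNS against 5363 and 6176 FPKM in dLN. Il4 was listed at 0 and 0.225 FPKM in CNS and at 266 and 273 FPKM in dLN. Not all cytokine and chemokine genes fell. Csf2 (log2 ratio 0.03, limma adjusted p = 0.967), Lta (-0.36), Ccl3 (1.48) and Ccl4 (-0.72) were not called, and neither was Fasl (-0.36). Cd69, an early activation marker, rose (516 and 510 FPKM in CNS against 189 and 221 FPKM in dLN, log2 ratio 1.32). Ifng and Prdm1 were also called higher (log2 ratios 1.43 and 0.64, limma adjusted p = 0.0343 and 0.0303). Both lost the call without the filter on low values, without either CNS replicate and without dLN replicate 2, and Prdm1 also with the same sum per library, with an adjusted p of 0.218 and 0.181 without CNS replicate 2, the highest of their alternatives. Without dLN replicate 2 the log2 ratio was 0.81 for Ifng and 0.38 for Prdm1. The methods and the labels disagree on stimulation, and any difference in it between CNS and dLN cells cannot be told apart from tissue.

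Of 26 other immediate-early genes tested, 12 were called higher and 6 lower in CNS, against 37.8% and 37.2% of all genes, and the median log2 ratio was 0.45 against 0.05. Dusp1, a phosphatase that switches MAP kinases off, was at 236 and 331 FPKM in CNS and at 20.1 and 20.9 FPKM in dLN (log2 ratio 3.71), and Rhob (3.22) and Klf6 (3.17) rose as well. Egr2 was at 9.52 and 20.8 FPKM in CNS and at 249 and 305 FPKM in dLN (log2 ratio -4.19), and Myc (-3.95) and Nr4a3 (-3.67) fell. All 6 had a limma adjusted p of at most 0.000608. Among heat-shock genes, which cells raise under stress such as tissue handling, 7 of 12 were called higher and 4 lower. Over all genes the shares were 37.8% and 37.2%, and 74.9% either way. Hspa1b and Hspa1a, near-identical copies whose reads may be split, had log2 ratios of 8.81 and 8.23, and Dnajb1 one of 3.49, whereas Hspd1 (-2.25), Hspe1 (-1.03) and Hsph1 (-0.94) fell. Tissue and any difference in handling or stimulation follow the same split of the libraries and cannot be told apart.

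**Figure D4:**
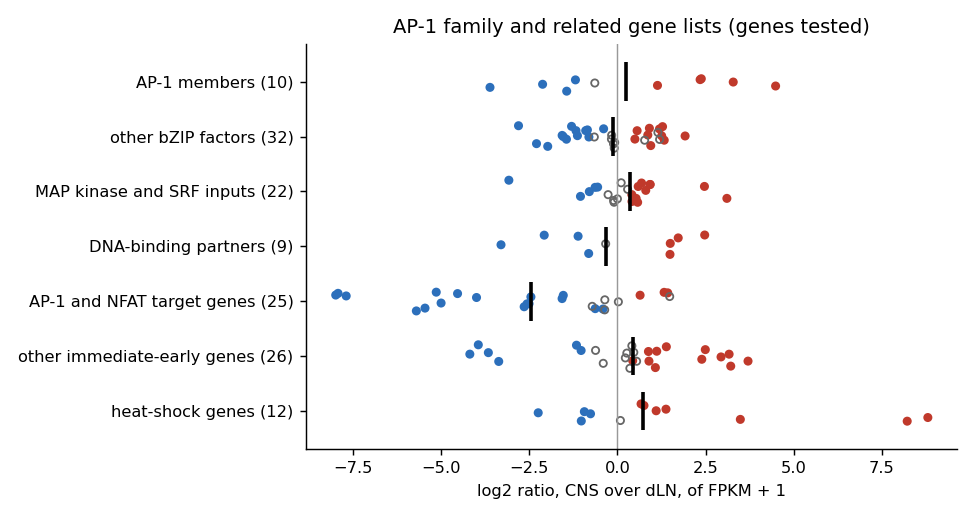
The log2 ratio of CNS over dLN for every tested gene of the AP-1 family and 6 related lists, with the number tested in brackets. Filled points were called (red, higher in CNS; blue, lower), open points were not, and the black line is the median of the list. The AP-1 members spread from -3.62 to 4.49 and the target genes lie mostly to the left.

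The genes whose levels followed those of Fos most closely were Rhob, Dnajb1 and Zfp36l2. Likeness was the Euclidean distance between log2(FPKM + 1) profiles over the 4 libraries, each centred on its mean, among 6401 other genes whose mean reached 10 FPKM in CNS or dLN. The distance was 0.22 for Rhob (36.2 and 47.5 FPKM in CNS against 3.36 and 3.79 FPKM in dLN), 0.32 for Dnajb1 and 0.34 for Zfp36l2 (300 and 307 FPKM in CNS against 28.5 and 30.4 FPKM in dLN). With 4 libraries this mostly restates a like difference between the tissues.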

How the data were processed

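RNA of effector CD4 cells was measured in 2 libraries from CNS and 2 from dLN, made with TruSeq RNA V2 kits and sequenced on an Illumina HiSeq2500. After trimming and mapping, the authors deposited an FPKM value for each of 33819 RefSeq transcripts (mouse build mm10), with a separate table for each tissue. The aligner and the program that computed FPKM are not given in the sources used here. The CNS table names both libraries in a single header cell, and its columns were taken in that order.

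FPKM was summed by symbol (565 transcripts without a symbol, up to 0.446% of a library's FPKM, were dropped). Each of the 10 genes had 1 transcript. A gene was tested where its mean reached 1 FPKM in CNS or dLN. The test used limma 3.58.1 under R 4.3.3 (lmFit, then eBayes with its trend option), fitted to log2(FPKM + 1) values with a single tissue term. That scale understates changes of low genes. Low values fell within 0.05 of a whole fragment for 90.9% to 93.4% of them (10% by chance), once transcripts were shortened by 150 to 195 bases. Depth and fragments per gene follow from that fit, as estimates. Both steps were also run on simulated data. Those data had far fewer changed genes than were called here, and their depth values followed the fitted formula. The runs thus check the code and not how well the models suit these libraries. Python 3.11.15 was used for the rest.

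Named genes were all 10 members, and of each other list the 3 largest rises and falls among its called genes. Further genes of these lists were named after the values had been seen. Members and lists were chosen with earlier results of these data known. Nothing in the labels shows that the libraries of a tissue came from separate mice. The p-values thus set the tissue difference against the spread between these libraries, moderated across genes by eBayes, and not against a spread between mice. Between the tissues, Y-linked RNA read only in CNS and Xist almost only in dLN point to mice of different sex. Alternatives covered the pseudocount, filters, scaling, transcript choice, the trend option, a minimum log2 ratio, a replicate block and each library left out.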

Additional observations from a re-analysis of the deposited data

How the results depend on the processing

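Over 14 alternatives for each of the 10 genes, 133 of 140 comparisons kept the direction and the side of the threshold. Batf3 reversed to 0.15 without dLN replicate 1 and passed at -1.44 without dLN replicate 2. The other changes, in Fosb, Fosl2 and Atf3, are given with each gene, and the cause was not tested. The count of members called stayed at 4 or 5 higher and at 3 or 4 lower. Adding the condition of a log2 ratio of 1 or more in size took the count over all genes from 7968 to 4168, since a second condition can only remove calls, and left 5 members higher and 4 lower. Target genes called higher fell from 3 to 1 without CNS replicate 2, an alternative chosen after seeing the data. The same sum per library shifted the median log2 ratio of all genes by -0.17 and the same upper quartile by 0.12, and no direction of a member changed. Both tissues have a replicate 1 and a replicate 2 in the labels, but sex-linked RNA differed between the tissues. The replicate differences of the tissues correlated at only 0.0933 across genes, and no pairing was assumed. A replicate block in the fit gave 7828 calls and changed no call of a member. Fosl1 in CNS is limited by its 0 and 3 fragments, and Batf3 differed more between the dLN libraries than between the tissues.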
